A study of Mus musculus with 4 samples.

Results

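The DNA replication and S phase genes are 39 mouse genes whose products load and fire replication origins, copy DNA, supply deoxynucleotides, repair the copied strand, package it and time S phase. They were taken by symbol from a list, with no threshold on a measured value, though the list was drawn up with earlier results of these data known. All 39 were among the 32544 genes of the count matrices, and all 39 had UMIs (unique molecular identifiers, 1 per captured RNA molecule) in each of the 4 libraries. The libraries hold flow-sorted nucleated bone marrow cells of 10-week-old mice, sequenced at the 3′ end of transcripts in droplets. The groups were YAP1 heterozygote mice (2 libraries) and wild type (WT) mice (2 libraries). The labels name no strain, no construction of the Yap1 allele and no gates of the sort.

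Origins are licensed when Cdc6 and its partners place the ring of MCM proteins on DNA in G1. At the start of S phase Cdc45 and the GINS complex turn that ring into a moving helicase, and polymerases, the sliding clamp PCNA, the flap nuclease FEN1 and ligase 1 follow it. Many of these genes are transcribed by E2F factors around the entry into S phase. Their transcripts are used as markers of cells entering or in S phase, but do not measure DNA synthesis. Megakaryocytes, the cells that release platelets, copy their DNA repeatedly without dividing, a process called endomitosis. YAP1 works with DNA-binding factors in the nucleus and is held back by Hippo signalling.

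Promoters are shown for the members highest in megakaryocyte-like cells among those that hold an E2F motif, since these genes are known as a group of E2F targets. The sequences are those of RefSeq (GRCm38.p6), 250 bases before to 50 bases after a listed start, 5′ to 3′ on the gene's strand, with the motif in capitals. The motifs searched were TTTCCCGC and TTTGGCGC on both strands. Dnmt1, the maintenance DNA methyltransferase, has its window at chr9:20952574-20952873, minus strand, which is 1 of 3 listed starts. Mcm6 and Mcm3, subunits of the replicative helicase, have theirs at chr1:128359656-128359955 and chr1:20820263-20820562, both on the minus strand.
Dnmt1: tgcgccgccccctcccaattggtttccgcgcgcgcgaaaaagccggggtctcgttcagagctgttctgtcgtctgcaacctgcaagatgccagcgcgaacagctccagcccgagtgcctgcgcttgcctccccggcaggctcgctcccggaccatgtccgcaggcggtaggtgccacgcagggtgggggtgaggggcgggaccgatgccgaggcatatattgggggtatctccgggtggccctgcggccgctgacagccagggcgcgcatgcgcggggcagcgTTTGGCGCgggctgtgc
Mcm6: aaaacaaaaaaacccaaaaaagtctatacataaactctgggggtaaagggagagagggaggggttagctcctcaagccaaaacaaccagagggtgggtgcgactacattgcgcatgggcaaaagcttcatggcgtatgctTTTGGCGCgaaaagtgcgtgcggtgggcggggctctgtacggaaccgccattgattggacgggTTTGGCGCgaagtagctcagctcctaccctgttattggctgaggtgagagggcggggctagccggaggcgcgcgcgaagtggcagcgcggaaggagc
Mcm3: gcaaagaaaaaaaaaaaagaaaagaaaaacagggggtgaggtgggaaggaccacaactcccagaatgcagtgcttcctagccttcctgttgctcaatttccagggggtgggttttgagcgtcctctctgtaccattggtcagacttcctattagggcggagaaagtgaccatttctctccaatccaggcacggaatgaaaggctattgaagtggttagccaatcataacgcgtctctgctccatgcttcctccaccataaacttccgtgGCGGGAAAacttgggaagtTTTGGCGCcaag
In the Mcm3 window the first motif reads on the opposite strand, and the 2 motifs start 19 and 38 bases after the first transcribed base. In the Mcm6 window the 2 motifs start 110 and 47 bases before it. The Dnmt1 motif starts 33 bases after the first transcribed base of the listed start shown. That start lies inside the annotated gene, which spans chr9:20907209-20959888, so the motif does not stand at the gene's outermost start. Of the 39 genes, 30 had a promoter in the table, and 10 of these 30 (33.3%) held an E2F motif, against 486 of all 27025 genes in the table (1.80%). The CCAAT box, searched as CCAAT on both strands, stood in 22 of the 30 (73.3%), against 41.1% of all genes. The other members with an E2F motif were Mcm5, Mcm7, Cdc6, Dtl, Pola1, Pold3 and Ubr7. A match of these letters is a description of the sequence and does not show binding.

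The libraries held between 112806900 and 119855112 UMIs in between 11346 and 14352 barcodes, and kept cells had median depths between 5520 and 6747 UMIs. Pairs of libraries shared between 27 and 62 barcodes. Replicate 1 of both groups expressed the Y-linked gene Ddx3y and replicate 2 Xist, so each group holds 1 library of each kind, and the labels do not say whether a library is 1 animal. Yap1 had 0 and 6 UMIs in the kept cells of the YAP1 heterozygote libraries and 6 and 7 in those of the WT libraries, too few to check the genotype labels. WT replicate 1 stood apart: 1438 of its cells (11.5%) were in 2 neutrophil clusters led by Cxcl2, Acod1 and Il1b (clusters 1 and 2), against 32 and 26 cells in the YAP1 heterozygote libraries and 130 in WT replicate 2. It also had the smallest share of erythroid progenitor-like cells, 1.15%, against 2.18% and 3.46% in the YAP1 heterozygote libraries and 3.86% in WT replicate 2.

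Cells were sorted into classes by clustering without the 39 genes and without fixed lists of other cell cycle genes. These lists covered other DNA replication genes, G1 to S control, and G2 and mitosis. Genes outside them that vary with the members were not left out, so the classes and clusters are not independent of the cell cycle. Each class was named after fixed markers as "-like" cells, except cluster 25, which stayed unnamed. The megakaryocyte-like class (425 cells, 1 cluster) matched its label: all 12 megakaryocyte markers were higher in it than over all kept cells, with Pf4, platelet factor 4, at 8538 CPM (the UMIs of a gene scaled to a common total), against 181 CPM over all kept cells, and the von Willebrand factor gene Vwf at 332 against 7.92 CPM. A list's score in a cluster is the mean standardized level of its markers. In the megakaryocyte-like class the second score was that of hematopoietic stem and early progenitor cells (HSPC), at 2.36 against 5.66. The 8 HSPC markers summed to 931 and 809 CPM there in YAP1 heterozygote libraries, against 957 and 837 CPM in WT libraries. The class is thus not shown to hold only mature megakaryocytes. To compare cells of different depth, each cell with at least 2000 UMIs was thinned to 2000 UMIs. A cell was called S-phase gene-high when the thinned cell held UMIs of at least 5 different members. Of 44519 such cells, 16640 (37.4%) held no member and 8042 were S-phase gene-high, while 1502 cells held 4 members and 1092 held 5, on either side of the limit. This class is a range of a score and not a measured cell cycle phase.

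The share of cells that were S-phase gene-high ran from nearly all erythroid progenitor-like cells down to nearly no mature neutrophil-like cells. It was 96.0% ± 2.73 (SD over 4 libraries) in erythroid progenitor-like cells, which divide with each step of maturation, and 69.7% ± 6.12 in megakaryocyte-like cells. It was 69.2% ± 2.19 in GMP-like cells, the granulocyte and monocyte progenitors. Neutrophil precursor-like cells, at 50.2% ± 1.81, and HSPC-like cells (hematopoietic stem and early progenitor cells), at 49.998% ± 2.35, came next. Of these neighbours, the megakaryocyte-like and GMP-like ranges over libraries overlapped, and so did those of neutrophil precursor-like and HSPC-like cells. The other steps were apart in all 4 libraries. The HSPC-like cluster scored 3.72 for its own markers and 3.78 for the eosinophil markers. Its first leading gene was the eosinophil marker Prg2, and 5 HSPC markers were among its leading genes.

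B cell precursor-like cells (29.8% ± 1.94) and monocyte-like cells (25.7% ± 1.68) followed, with ranges that overlapped, and each was a mixture of clusters with different shares. Among B cell precursor-like cells, cluster 10, led by Myl4 and Igll1, had 93.8% ± 1.00, cluster 9, led by the surrogate light chain gene Vpreb1 and with Dntt among its leading genes, 19.2% ± 4.32, and cluster 7, with Rag1, 9.27% ± 1.71. Among monocyte-like cells, cluster 15, led by F13a1, had 77.7% ± 0.37 and cluster 26, led by Vcan, 4.55% ± 1.34. The ranges of these clusters did not overlap between cluster 10 and clusters 7 and 9, or between clusters 15 and 26. Neutrophil precursor-like cells were a mixture too, with 57.9% ± 0.98 in cluster 18 and 38.2% ± 1.69 in cluster 3. Their cluster 2 had 14.6% ± 23.9, on as few as 3 cells of at least 2000 UMIs in a library.

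At the low end, basophil or mast cell-like cells had 17.7% ± 4.64, and NK cell-like, plasmacytoid dendritic cell-like and T cell-like cells had means between 6.35% and 9.90%. Mature B cell-like cells had 2.96% ± 0.934. Immature neutrophil-like cells had 0.276% ± 0.129. In mature neutrophil-like cells 3 of 13614 cells were S-phase gene-high (0.0220%), and 2 of the 4 libraries had none. This class includes clusters 19 and 20, which scored 2.21 and 1.46 for the immature neutrophil markers. Their scores for the mature neutrophil markers were 0.83 and 1.38. Neither cluster held an S-phase gene-high cell.

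**Figure D1:**
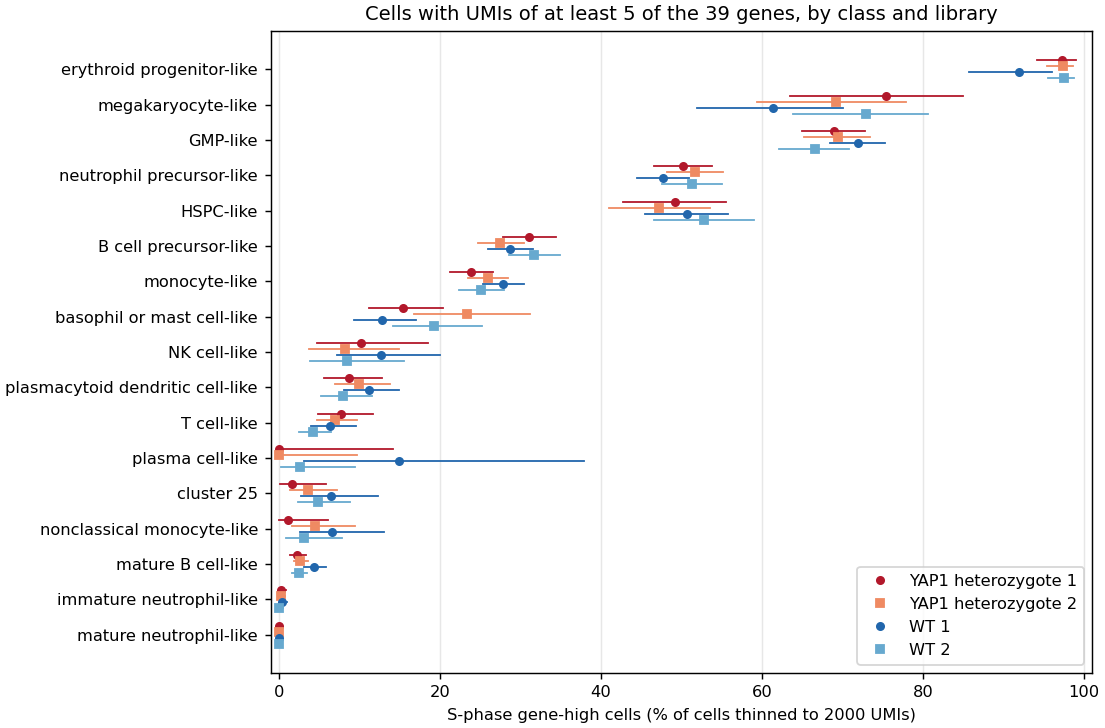
Share of S-phase gene-high cells (% of cells with at least 2000 UMIs, thinned to 2000) in the 17 classes with at least 20 such cells in every library. Points are single libraries, with YAP1 heterozygote above WT, and bars are exact (Clopper-Pearson) 95% intervals that cover counting error only; the megakaryocyte-like points lie between 61.3% and 75.4%, below all erythroid progenitor-like points.

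Transcripts of 44 genes of G2 and mitosis split the same classes differently. With the same limit of 5 genes, 92.0% of erythroid progenitor-like cells and 84.7% of neutrophil precursor-like cells were high for them, but 44.7% of megakaryocyte-like cells, 55.1% of GMP-like cells and 33.0% of HSPC-like cells (means of 4 libraries). Megakaryocyte-like cells thus had a higher share for the S phase genes than for the G2 and mitosis genes in every library, with the second between 38.7% and 50%, whereas neutrophil precursor-like cells had the reverse order in every library. The lists differ in length, so the order within a class depends on the limit. T cell-like cells reached 6.35% for the S phase genes with 1.88% for the G2 and mitosis genes. Outside dividing cells some members kept much of their level: relative to HSPC-like cells, the median member stood at 25.7% in T cell-like, 20.1% in mature B cell-like and 2.69% in mature neutrophil-like cells. Slbp, which binds the stem-loop of histone mRNA, was at 75.7%, 70.5% and 32.5% in these classes, and the chromatin ATPase gene Atad2 at 78.0% in T cell-like cells.

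Depth and the limit bear on these shares. In megakaryocyte-like cells the share was 34.8% after thinning to 1000 UMIs and 89.7% after thinning to 4000, which only deeper cells allow. It was 88.8% with a limit of 3 members and 41.7% with a limit of 8. At 4000 UMIs B cell precursor-like cells (76.9%) stood above HSPC-like cells (72.2%). Erythroid progenitor-like cells stayed first in each of these settings, and megakaryocyte-like cells ranked 2 or 3 of 17 classes. Without thinning, the shares were 95.3% in megakaryocyte-like, 98.3% in GMP-like, 97.7% in erythroid progenitor-like and 0.434% in mature neutrophil-like cells, whose median depths differ (18799 UMIs in megakaryocyte-like and 4394.5 in mature neutrophil-like cells). Most S-phase gene-high cells came from 5 classes: neutrophil precursor-like (20.2% of them, mean of 4 libraries), GMP-like (19.3%), monocyte-like (14.4%), erythroid progenitor-like (14.1%) and B cell precursor-like cells (13.5%). Megakaryocyte-like cells made up 3.51%. The erythroid part varied most, at 12.1% and 19.0% in the YAP1 heterozygote libraries and at 5.30% in WT replicate 1 and 20.1% in WT replicate 2.

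The summed level of the 39 genes followed a similar order. It averaged 7725 ± 266 CPM in erythroid progenitor-like, 5027 ± 320 in B cell precursor-like, 4122 ± 342 in megakaryocyte-like, 3890 ± 137 in HSPC-like, 3741 ± 84.0 in GMP-like and 186 ± 17.0 in mature neutrophil-like cells (SD, 4 libraries). The megakaryocyte-like sum was 22.1 times that of mature neutrophil-like cells, and the erythroid progenitor-like sum 1.87 times that of megakaryocyte-like cells. B cell precursor-like cells came second by this sum and sixth by the share of cells.

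Single members mostly shared this order. Across 18 classes the log2 level of a member correlated with the summed level of the other 38 at a median Pearson r of 0.97, as a description over classes that share libraries. Erythroid progenitor-like cells were the highest class for 34 of the 39 genes. Megakaryocyte-like cells were first for 2, Dnmt1 and the uracil-DNA glycosylase gene Ung, second for 11 and among the first 3 classes for 22. For both Dnmt1 and Ung the class in second place overlapped them over libraries.

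**Figure D2:**
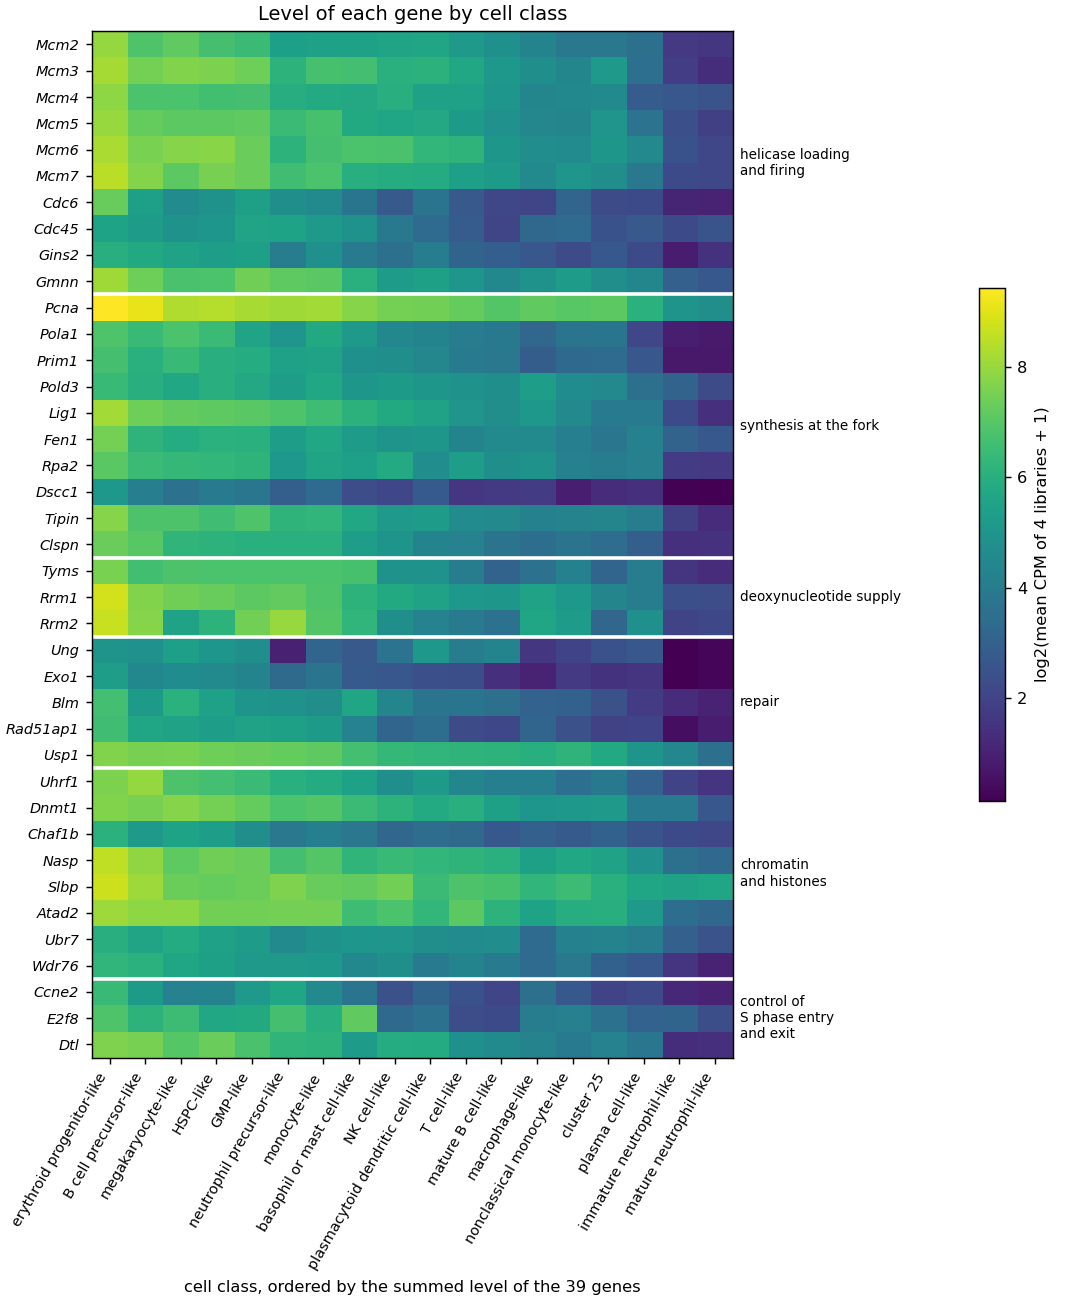
Level of each of the 39 genes (rows, grouped by role) in 18 cell classes (columns, ordered by the summed level), as log2 of the mean CPM of 4 libraries plus 1. Most rows fade in the same order towards the neutrophils at the right, while Rrm2 is dark in megakaryocyte-like cells, Ung in neutrophil precursor-like cells, and E2f8 is brightest in basophil or mast cell-like cells.

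Ung, E2f8 and Uhrf1 were highest in a class other than erythroid progenitor-like cells and were chosen after their values were seen. So were Dnmt1 and Cdc45, the latter highest in GMP-like cells. Over classes Uhrf1 followed the other members (r of 0.98), and Cdc45 and Rrm2 did so less (r of 0.87 each). Ung, which removes uracil from DNA, had the lowest correlation (r of 0.74): it averaged 40.9 ± 7.15 CPM in megakaryocyte-like and 32.8 ± 2.04 CPM in plasmacytoid dendritic cell-like cells, but 0.995 ± 0.306 CPM in neutrophil precursor-like cells. E2f8, a repressor of the E2F family, was highest in basophil or mast cell-like cells at 142 ± 16.8 CPM, where the range over libraries overlapped that of erythroid progenitor-like cells (117 ± 3.76 CPM). Uhrf1, which guides Dnmt1 to newly copied DNA, was highest in B cell precursor-like cells at 250 ± 18.1 CPM, above all erythroid progenitor-like libraries (191 ± 11.9 CPM).

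Rrm2, the subunit of ribonucleotide reductase that is limiting in S phase, was the member lowest in rank in megakaryocyte-like cells. It averaged 44.4 ± 7.78 CPM there, ninth of 18 classes, against 400 ± 19.4 CPM in erythroid progenitor-like and 252 ± 18.1 CPM in neutrophil precursor-like cells. Its partner subunit gene Rrm1 ranked 3 of 18 in megakaryocyte-like cells, at 171 ± 30.4 CPM.

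Megakaryocyte-like cells were next compared with HSPC-like cells, from which the lineage arises, in 1 fit over all 11148 tested genes with the library as a block. Here 11 of the 39 genes were higher and 5 lower in megakaryocyte-like cells (edgeR's quasi-likelihood test, Benjamini-Hochberg adjusted p under 0.05). Of all genes tested, 21.4% were called higher and 23.9% lower. The members' counts changed when the cell cycle genes took part in the clustering and are not read as a result about the members. The median log2 fold change of the members was 0.09, against −0.01 for all genes.

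The repressor E2f8 had the largest rise: it averaged 90.2 ± 6.79 CPM in megakaryocyte-like and 50.7 ± 4.61 CPM in HSPC-like cells (SD, 4 libraries). Its log2 fold change was 0.83 ± 0.09 (SE), with a Benjamini-Hochberg adjusted p of 9.35e-06 by edgeR. Blm, the Bloom helicase gene, averaged 66.5 ± 6.71 and 42.4 ± 3.06 CPM in the same order, with 0.66 ± 0.09. Mcm2 (0.48 ± 0.08), the primase gene Prim1 (0.41 ± 0.09) and Atad2 (0.41 ± 0.07) came next, and all 5 were above HSPC-like cells in 4 of 4 libraries. The other 6 higher genes were Ubr7, Ung, Pola1, Dnmt1, Tipin and Usp1, with log2 fold changes between 0.16 and 0.40.

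Rrm2 had the largest fall, at 44.4 ± 7.78 CPM in megakaryocyte-like and 70.6 ± 15.2 CPM in HSPC-like cells, or −0.67 ± 0.09 on the log2 scale (adjusted p = 6.37e-05 by edgeR). The helicase subunit gene Mcm7 (−0.41 ± 0.09), Dtl (−0.35 ± 0.08), whose product marks proteins for destruction at the clamp, the histone chaperone gene Nasp (−0.28 ± 0.07) and the polymerase delta subunit gene Pold3 (−0.24 ± 0.09, adjusted p = 0.0499) followed. All but Pold3 were below HSPC-like cells in 4 of 4 libraries. In this clustering the helicase ring was not of 1 direction: Mcm2 was higher, Mcm7 lower, and Mcm3, Mcm4, Mcm5 and Mcm6 did not pass the test, with log2 fold changes between −0.05 and 0.19. Pold3, Ung, Tipin and Usp1 each lost their call when 1 or more single libraries were left out. When the cell cycle genes took part in the clustering, 26 members were higher and 1 lower. Of all 10913 genes tested there, 2419 were called higher and 2558 lower. Rrm2, Dtl, Nasp and Pold3 were then not called, and Mcm3, Mcm4 and Mcm5 were. In that clustering the HSPC-like share of S-phase gene-high cells was 41.8% in place of 49.998%.

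Against erythroid progenitor-like cells the members were lower nearly throughout. Of the 39 genes 38 were lower and 0 higher by edgeR, beside 36.4% of all 10757 genes called lower and 37.1% called higher. The median log2 fold change of the members was −1.03, against 0.02 for all genes. The scaling matters here: by plain CPM, the median of all genes is 0.28 on the log2 scale, and on that scale 2 members, Dnmt1 and Ung, had a higher mean in megakaryocyte-like cells. Among the 38 genes called lower, the difference was smallest for Dnmt1 (−0.18 ± 0.06), Pola1 (−0.36 ± 0.07) and Usp1 (−0.40 ± 0.06), named after their values were seen. Dnmt1 was no longer called without WT replicate 2 or without YAP1 heterozygote replicate 2. Ung did not pass the test (0.18 ± 0.11, adjusted p = 0.152), but was called higher when replicate 2 of the YAP1 heterozygote group was left out.

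The largest fall was that of Rrm2 (−3.45 ± 0.09, edgeR adjusted p = 1.09e-11). Cdc6, the origin licensing factor, averaged 23.5 ± 3.47 CPM in megakaryocyte-like and 155 ± 8.30 CPM in erythroid progenitor-like cells, with −3.01 ± 0.09. Ccne2, the cyclin E2 gene whose product drives entry into S phase, had 17.9 ± 0.467 and 85.6 ± 10.2 CPM in that order, with −2.52 ± 0.10. The flap nuclease gene Fen1 (−1.86 ± 0.09) and the cohesion factor gene Dscc1 (−1.82 ± 0.14) followed. Each of these 5 genes was lower in megakaryocyte-like cells in 4 of 4 libraries. Classes were built from the same cells, so these p-values describe the difference between classes as clustered.

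**Figure D3:**
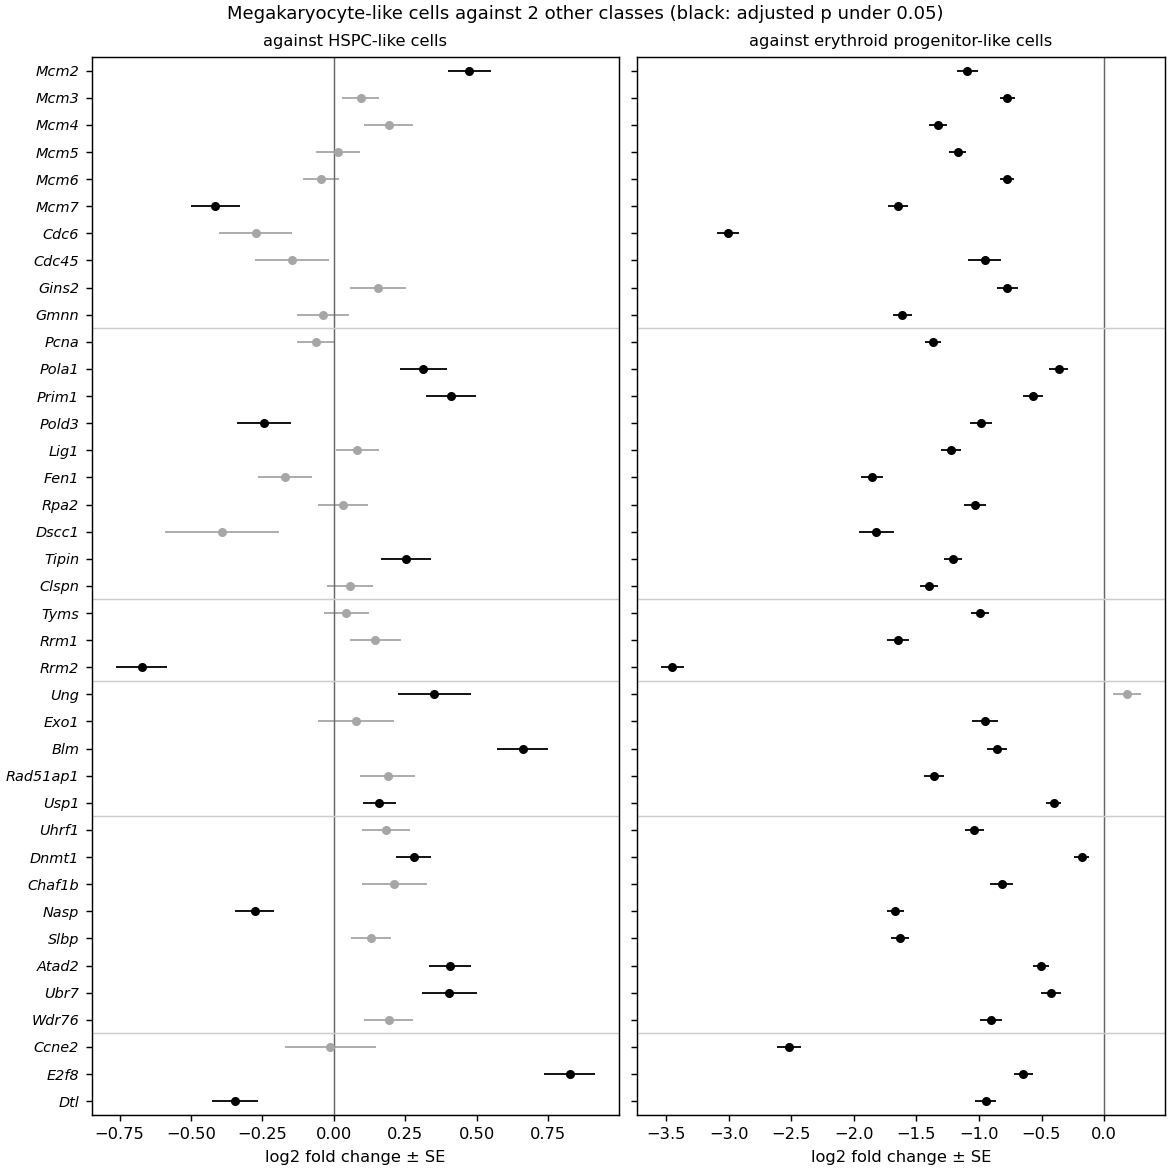
Log2 fold change with its standard error for each of the 39 genes in megakaryocyte-like cells against HSPC-like cells (left panel) and against erythroid progenitor-like cells (right panel, on another scale), with genes in rows by role. Black points passed an adjusted p of 0.05; Rrm2 is the lowest point in both panels, at −0.67 and −3.45.

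Within the megakaryocyte-like class the cells differed in how many members they held. A thinned cell held a median of 7 members, with quartiles of 4 and 9 and a highest value of 18, and 80 of 410 cells lay at the limit with 4 or 5. Pcna was found in 44.1% of thinned megakaryocyte-like cells, Mcm6 in 36.8% and Dnmt1 in 35.6%. In mature neutrophil-like cells, which hold few of these transcripts, the same shares were 5.26%, 0.713% and 1.02%. The lowest shares in megakaryocyte-like cells were those of Cdc6 (3.66%), Ccne2 (2.20%) and Dscc1 (1.71%), against 0.228%, 0.176% and 0.0294% in mature neutrophil-like cells.

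S-phase gene-high megakaryocyte-like cells were not set apart by their lineage markers in a steady direction. The summed level of the 12 megakaryocyte markers in high and other cells was 9655 and 7754 CPM in YAP1 heterozygote replicate 1, and 11229 and 11764 CPM in YAP1 heterozygote replicate 2. It was 10493 and 7750 CPM in WT replicate 1, and 12318 and 14634 CPM in WT replicate 2. High cells were above the others in both libraries of replicate 1 and below them in both of replicate 2. Split at the median depth of each library, the deeper cells were S-phase gene-high in between 69.2% and 76.5%, and the shallower cells in between 53.3% and 74.3%. The share for G2 and mitosis genes differed more with depth: between 50% and 69.5% of the deeper cells and between 16.7% and 34.3% of the shallower ones.

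The study asks what YAP1 does in platelet formation, and in megakaryocyte-like cells no member passed the test between the genotypes. The share of S-phase gene-high cells was 75.4% (52 of 69 cells, exact 95% interval 63.5 to 84.9) and 69.2% (72 of 104, 59.4 to 77.9) in the YAP1 heterozygote libraries. It was 61.3% (73 of 119, 52.0 to 70.1) and 72.9% (86 of 118, 63.9 to 80.7) in the WT libraries. The groups overlapped, and the difference of 5.18 percentage points was smaller than the pooled SD of 6.53 points between replicates. Without WT replicate 1 the difference was −0.58 points.

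The summed level of the members was 4513 and 4282 CPM in the YAP1 heterozygote libraries, against 3950 and 3744 CPM in the WT libraries. Both YAP1 heterozygote libraries were thus above both WT libraries, by a ratio of means of 1.14, and the log2 ratio was 0.19 within replicate 1 and 0.19 within replicate 2. By edgeR 0 of the 39 genes were called, where 1 of all 9707 tested genes (0.0103%) was, and DESeq2 also called 0. At an unadjusted p under 0.05 there were 5 members (Mcm2, Mcm4, Gmnn, Lig1 and Rrm1; edgeR adjusted p = 0.999 for each), beside 2.35% of all genes.

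The direction was shared by most members. The fitted log2 fold change was above 0 for 34 of the 39 genes, with a median of 0.20, while 49.8% of all genes were above 0. The values of the 2 groups in CPM were apart for 25 members, 23 with YAP1 heterozygote above WT and 2 with it below, where 13.5% of all tested genes were apart above and 15.7% apart below. The median stayed between 0.18 and 0.24 when each library was left out in turn, including WT replicate 1 (0.19). With 2 libraries a group and members that vary together from cell to cell, these counts are a description, not a test.

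**Figure D4:**
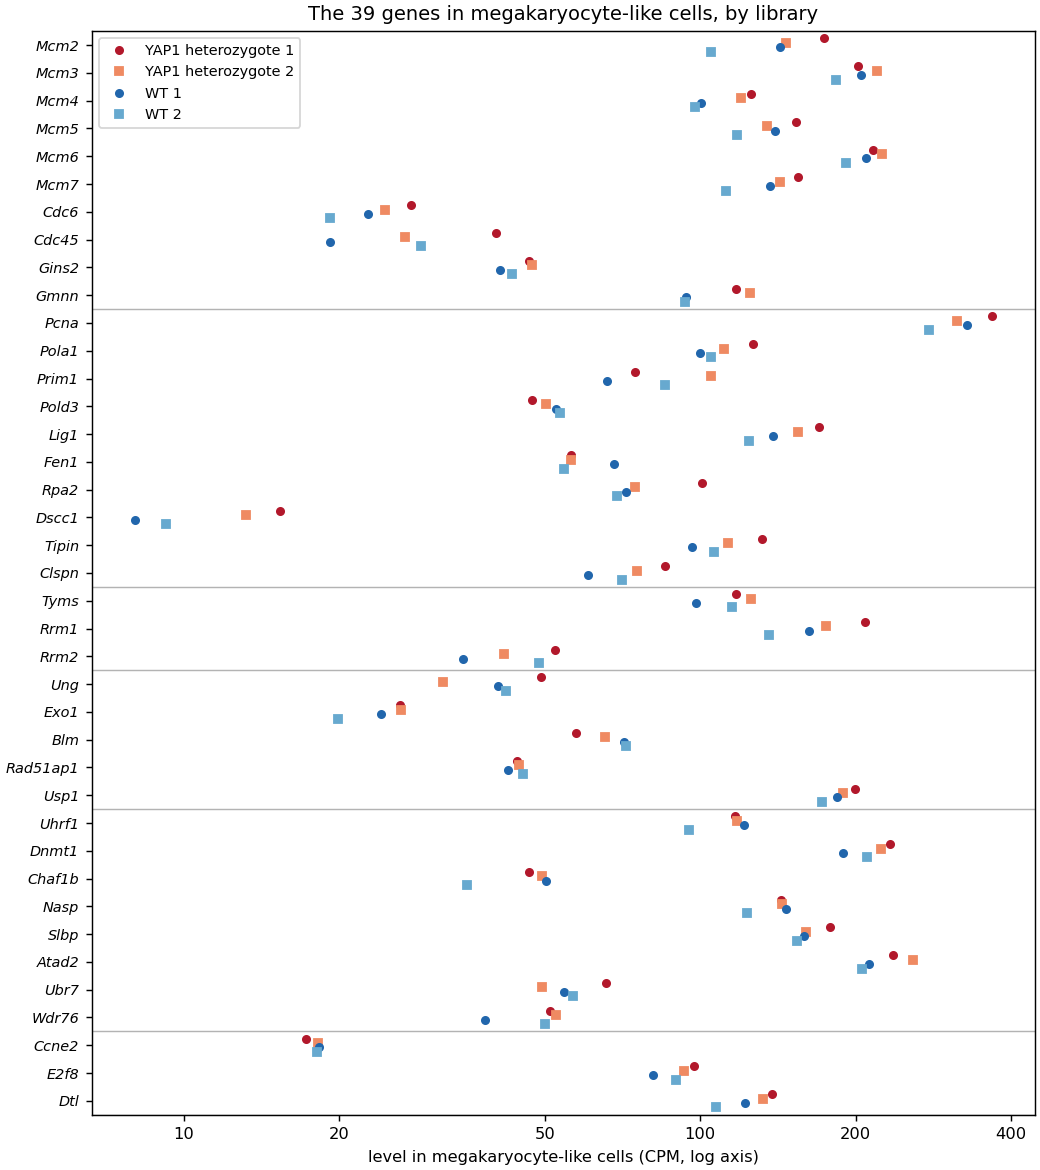
Level of each of the 39 genes in megakaryocyte-like cells in CPM (log axis), 1 point per library, with YAP1 heterozygote libraries in red and orange and WT libraries in blue, genes in rows by role. Both red and orange points lie right of both blue points for 23 genes and left of them for Pold3 and Blm.

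All 10 genes of helicase loading and firing had a fold change above 0, with a median of 0.30. Mcm6 had 217 and 225 CPM in YAP1 heterozygote libraries, against 210 and 192 CPM in WT libraries (log2 fold change 0.15 ± 0.12, SE). Mcm3 had 202 and 220 CPM, against 205 and 183 CPM in WT libraries. Mcm2 had 174 and 147 CPM, against 143 and 105 CPM in WT libraries, with 0.39 ± 0.16 (edgeR, unadjusted p = 0.0363). Gmnn, the gene of geminin, which blocks a new round of licensing, had 118 and 125 CPM in YAP1 heterozygote libraries, against 94.0 and 93.7 CPM in WT libraries, with 0.38 ± 0.14. Mcm2, Mcm6 and Gmnn were apart between the groups, and Mcm3 overlapped.

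At the replication fork 8 of 10 genes had a fold change above 0. The clamp gene Pcna had 367 and 315 CPM in YAP1 heterozygote libraries, against 328 and 277 CPM in WT libraries, and overlapped. The ligase gene Lig1 had 170 and 155 CPM, against 138 and 124 CPM in WT libraries (0.32 ± 0.14). Pold3 had 47.3 and 50.4 CPM, against 52.6 and 53.5 CPM in WT libraries (−0.10 ± 0.17), and Fen1 56.2 and 56.3 CPM, against 68.2 and 54.6 CPM (−0.11 ± 0.17). These 2 were the genes below 0 in this role, and Fen1 overlapped between the groups.

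All 3 genes of deoxynucleotide supply were above 0. Rrm1 had 209 and 176 CPM in YAP1 heterozygote libraries, against 162 and 136 CPM in WT libraries (0.38 ± 0.14). The thymidylate synthase gene Tyms had 118 and 126 CPM, against 98.0 and 115 CPM in WT libraries. Both were apart between the groups, while Rrm2 overlapped, at 52.4 and 41.7 CPM, against 34.8 and 48.7 CPM in WT libraries.

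The repair genes had no shared direction, with 3 of 5 above 0 and a median of 0.02. Usp1, which removes ubiquitin from PCNA, had 199 and 189 CPM in YAP1 heterozygote libraries, against 184 and 172 CPM in WT libraries (0.14 ± 0.13). Blm had 57.5 and 65.3 CPM, against 71.3 and 71.9 CPM in WT libraries (−0.20 ± 0.16). Both genes were apart between the groups, in opposite directions.

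All 8 genes of chromatin and histones were above 0, with a median of 0.16. Atad2 had 236 and 259 CPM in YAP1 heterozygote libraries, against 212 and 206 CPM in WT libraries (0.26 ± 0.13). Dnmt1 had 234 and 224 CPM, against 189 and 211 CPM in WT libraries (0.21 ± 0.13). Among the genes of S phase control, Dtl had 138 and 133 CPM, against 122 and 107 CPM in WT libraries, and E2f8 had 97.1 and 93.0 CPM, against 81.1 and 89.6 CPM. These 4 genes were apart between the groups, and none passed the test.

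Other lists of the cell cycle gave the setting for this. Of 50 other DNA replication genes 32 were above 0 in megakaryocyte-like cells, with a median of 0.07. By edgeR 0 were called and 3 had an unadjusted p under 0.05. Among genes of at least 50 CPM the largest were Orc6, an origin recognition gene (0.38 ± 0.17), Dctpp1, which clears modified dCTP (0.32 ± 0.12), and Topbp1 (0.25 ± 0.15), and the lowest Pold4 (−0.19 ± 0.19), Rpa1 (−0.13 ± 0.19) and Dbf4 (−0.13 ± 0.17). Of 25 tested genes of G1 to S control 16 were above 0, with a median of 0.06, 0 called and 0 at an unadjusted p under 0.05 by edgeR. These ranged, among genes of at least 50 CPM, from Ccna2 (−0.31 ± 0.22), Cdkn2d (−0.21 ± 0.16) and Ccnd2 (−0.05 ± 0.13) to Ccnd3 (0.20 ± 0.12), Cdk4 (0.26 ± 0.14) and Myc (0.32 ± 0.15).

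By the sign of the fold change the G2 and mitosis genes went the other way, with 9 of 43 tested genes above 0 and a median of −0.10. By edgeR 0 were called and 1 had an unadjusted p under 0.05. In CPM 1 gene was apart above and 6 apart below, beside 13.5% and 15.7% of all tested genes. The share of cells high for this list overlapped, at 42.0% and 48.1% in YAP1 heterozygote libraries, against 38.7% and 50% in WT libraries. Cyclin B2, from Ccnb2, was at 86.9 and 84.4 CPM in YAP1 heterozygote libraries, against 84.7 and 119 CPM in WT libraries (−0.25 ± 0.18). Tacc3 (−0.22 ± 0.17) and the centromere gene Cenpa (−0.20 ± 0.19) were the other 2 lowest of at least 50 CPM. Cdk1 (0.26 ± 0.16), Top2a (0.15 ± 0.15) and Smc4 (0.14 ± 0.14) were the highest. No test compared the lists with each other.

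Transcripts of other cell types in the megakaryocyte-like class also moved between libraries. Of the 21 other marker lists, the summed level was apart between the groups for 4. The 8 basophil or mast cell markers summed to 276 and 239 CPM in YAP1 heterozygote libraries, against 619 and 362 CPM in WT libraries, with 0 of 8 markers higher in the YAP1 heterozygote mean and none at 0. The 7 monocyte markers summed to 124 and 265 CPM, against 124 and 122 CPM, with all 7 higher and none at 0, though 1 library of each group was level at this precision. The eosinophil and NK cell lists, also apart, summed to at most 2.23 and 5.53 CPM in a library. The 7 immature neutrophil markers varied most, at 456 and 1865 CPM in YAP1 heterozygote libraries, against 4301 CPM in WT replicate 1 and 567 CPM in WT replicate 2. The part of these transcripts in the members' values was not tested.

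Over all classes the members had no shared direction between the genotypes. In 18 classes, megakaryocyte-like cells among them, there were 601 tests of a member, of which 0 were called by edgeR and 39 had an unadjusted p under 0.05, where 0.0325% of all genes in these classes were called and 4.74% had an unadjusted p under 0.05. DESeq2 also called 0. The median fold change of the tested members was 0.21 in basophil or mast cell-like (33 of 38 above 0), 0.21 in T cell-like (28 of 35), 0.08 in neutrophil precursor-like (35 of 39) and 0.07 in erythroid progenitor-like cells (30 of 39). It was 0.03 in both GMP-like and HSPC-like cells. It was −0.21 in mature B cell-like (6 of 37), −0.25 in NK cell-like (7 of 28) and −1.17 in plasma cell-like cells (1 of 15), a class of 161 cells. Most of these medians moved with single libraries. Without WT replicate 1 the median was −0.01 in erythroid progenitor-like, −0.06 in HSPC-like, 0.01 in neutrophil precursor-like, 0.01 in NK cell-like, −0.09 in mature B cell-like and 0.53 in T cell-like cells. In T cell-like cells it was −0.07 without WT replicate 2 (17 of 37 above 0) and 0.09 without YAP1 heterozygote replicate 1. In basophil or mast cell-like cells it was 0.37 when replicate 1 of the YAP1 heterozygote group was left out and 0.05 when its replicate 2 was.

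**Figure D5:**
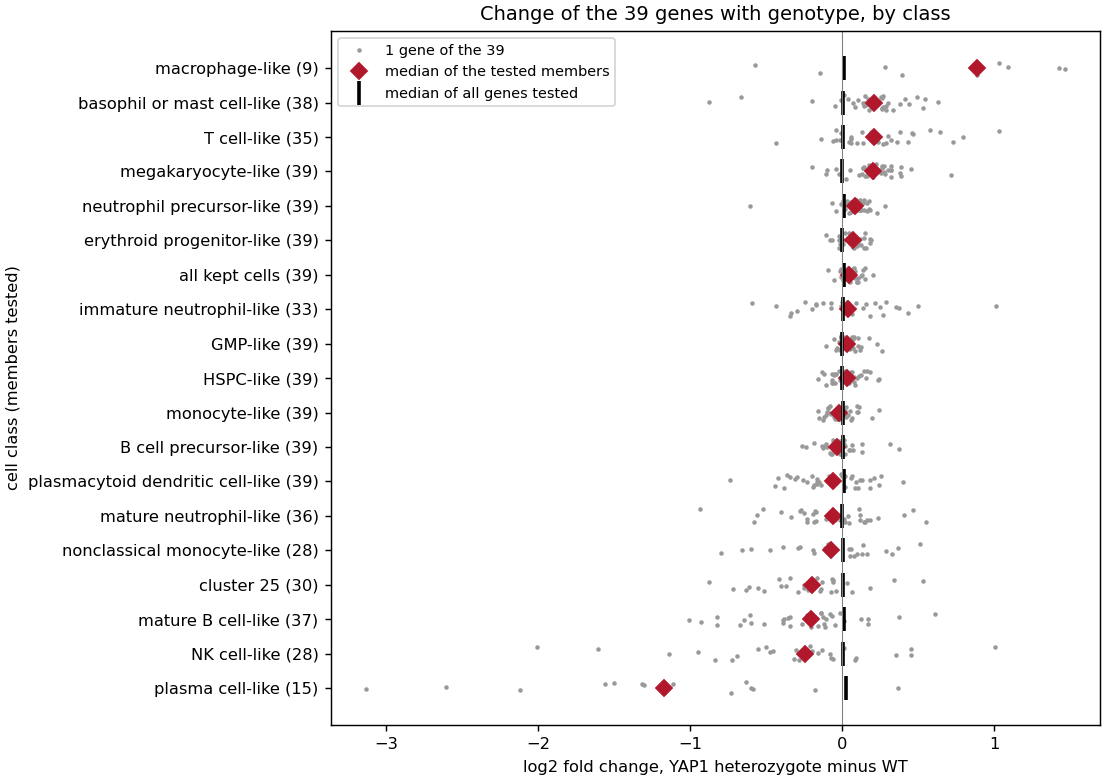
Log2 fold change (YAP1 heterozygote minus WT) of each tested member (grey points) in 18 classes and in all kept cells, with the members' median (diamond) and the median of all genes tested (bar); the number of members tested stands beside each class. The members' medians lie on both sides of 0, at 0.20 in megakaryocyte-like and −0.21 in mature B cell-like cells, and the widest spread is in the small plasma cell-like class.

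Summed levels were apart between the groups in some of these classes. Basophil or mast cell-like cells had 2147 and 2750 CPM in YAP1 heterozygote libraries, against 1881 and 2076 CPM in WT libraries. Neutrophil precursor-like cells had 3132 and 3076 CPM, against 2952 and 3021 CPM in WT libraries. Both classes were apart between the groups. The neutrophil precursor-like class includes cluster 2, with 92 of its 109 cells from WT replicate 1. Cluster 18, the largest of this class, was apart the other way by share of S-phase gene-high cells. That share was 56.6% and 57.8% in YAP1 heterozygote libraries, against 58.9% and 58.3% in WT libraries, while cluster 3 overlapped. Plasma cell-like cells had 293 and 232 CPM, against 1159 and 520 CPM in WT libraries, and were also apart, on as few as 21 cells in a library. Macrophage-like cells, with 9 members tested and a median of 0.88, had 1227 and 1023 CPM, against 716 and 868 CPM in WT libraries. Without YAP1 heterozygote replicate 1 the macrophage-like median was 0.27, over 6 members tested.

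By share of S-phase gene-high cells, 13 of 17 classes overlapped between the groups. T cell-like cells were apart above, with 7.81% and 6.97% in YAP1 heterozygote libraries, against 6.41% and 4.21% in WT libraries. HSPC-like cells were apart below, with 49.2% and 47.3%, against 50.7% and 52.9% in WT libraries, while their summed level overlapped, at 3969 and 3864 CPM, against 3709 and 4018 CPM. Cluster 25, an unnamed cluster led by C1qb and Cd209a, was apart below, with 1.67% and 3.59%, against 6.45% and 4.93% in WT libraries. Plasma cell-like cells had none in the YAP1 heterozygote libraries (24 and 36 cells, which allows shares of up to 12.5% and 8.33%), against 15% and 2.70% in WT libraries.

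In all kept cells together the share was 17.8% and 17.7% in YAP1 heterozygote libraries, against 18.7% and 18.1% in WT libraries, and so was apart below. The summed level overlapped and was 2733 and 2770 CPM, against 2581 and 2839 CPM in WT libraries. No member was called there, with 0% of all genes called and 0 members at an unadjusted p under 0.05. Fitted fold changes were above 0 for 34 of 39 members, with a median of 0.04, but without WT replicate 1 for 9 of 39, with a median of −0.03.

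The level in all kept cells moved with the erythroid progenitor-like cells, which held 23.0% and 31.1% of the members' UMIs in YAP1 heterozygote libraries, against 9.35% in WT replicate 1 and 34.9% in WT replicate 2. Without them, an alternative chosen after seeing the data, the summed level was 2285 and 2145 CPM in YAP1 heterozygote libraries, against 2419 and 2115 CPM in WT libraries. The order of the 4 libraries then differed from that with them, WT replicate 1 being highest in place of lowest.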

How the data were processed

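Single-cell 3′ RNA libraries (10x kit version 3.1) were deposited as raw UMI counts per gene and cell. The authors' counting used Cell Ranger 5.0.0 per the file headers; the submitters' processing notes name Cell Ranger 3.0.0, Seurat 4.3.0, GRCm38 and mm10, and no filter before deposit is stated.

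From these counts, the kept cells had 500 or more UMIs, 200 or more genes and no more than 10% of UMIs from mitochondria, and Scrublet doublets (0.8% expected per 1000 cells) were removed. Scanpy 1.11.5 scaled cells to 10000 UMIs and took 2000 variable genes without the members and the fixed lists of other cell cycle genes. With 30 components and 15 neighbours it made 35 Leiden clusters (resolution 1). The clusters formed 21 classes named by markers, except cluster 25, which stayed unnamed. Another clustering could name cells differently. Counts were summed per library and class; CPM divides by the UMIs of that sum and is not divided by transcript length, so levels of different genes are not compared. Genotypes and classes were tested with edgeR 4.0.16 (quasi-likelihood, TMM, filterByExpr) in R 4.3.3, in classes with at least 20 cells in every library, the library being a block between classes. DESeq2 1.42.0, other scalings, filters, thresholds and left-out libraries were alternatives. Labels do not say whether libraries are separate animals, so p-values measure only the spread between these libraries. Intervals and floors (3 counts of the total for a count of 0) cover counting error only. The scripts were tested on simulated data. Named genes are the 2 highest members of each role and the 3 with the largest change each way at 50 CPM or more, the 5 with the largest change each way between classes, and the 3 largest each way of other lists. Members and lists were chosen with earlier results of these data known.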

Additional observations from a re-analysis of the deposited data

How the results depend on the processing

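In megakaryocyte-like cells 0 members were called between genotypes under every alternative run, and the median log2 fold change stayed between 0.18 and 0.24. Over all classes 0 member calls became 10 with no filter on low counts (1612 genes called in place of 53) and lay between 0 and 17 with 1 library left out. Calls over all genes also rose in each of these fits with 1 library left out, which leave 1 library in a group. Their member counts are therefore not read as a result about the members. The replicate numbers are shared by the groups, but the labels do not say that a number pairs samples. Same-numbered libraries deviated together at r of 0.49 over 15592 genes and 0.38 over 15121 genes without the sex chromosomes. With the replicate number as a block, 4 members were called over all classes (1952 genes). Against HSPC-like cells, clustering with the cell cycle genes gave 26 higher and 1 lower member, beside 2419 higher and 2558 lower of all 10913 genes. Leaving out 1 library gave between 8 and 13 higher and between 4 and 6 lower members. Against erythroid progenitor-like cells leaving out 1 library gave between 0 and 1 higher member. The genotype difference in the megakaryocyte-like share was 13.4 points with a limit of 8 members, −3.67 without thinning and between −0.58 and 10.95 with 1 library left out, negative without WT replicate 1. The members' median in all kept cells was −0.029 without WT replicate 1 and between −0.03 and 0.13 over the left-out libraries. The log2 ratio of the summed level in all kept cells was −0.033 without erythroid progenitor-like cells, chosen after seeing the data. The cause of these changes was not tested.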
